A study of Mus musculus with 8 samples.

Results

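Molecular chaperones of the HSP70, HSP110, HSP90 and calnexin families were examined in whole testes of 12-day-old (P12) mice. The set comprised 10 genes, chosen by symbol from the 40840 genes of each count table. Of these, 4 are germ cell forms (*Hspa2*, *Hspa1l*, *Hspa4l* and *Clgn*) and 6 are their ubiquitous relatives (*Hspa4*, *Hspa5*, *Hspa8*, *Hsp90aa1*, *Hsp90ab1* and *Canx*). RNAseq was performed on 4 wild type and 4 *Tra2b-cPEko* testes from independent mice, with replicate letters A to D within each genotype. Wild type mice carried a floxed copy of the *Tra2b* poison exon beside an intact one (Tra2bPE fl/+). *Tra2b-cPEko* mice carried a floxed allele over a deleted allele together with *Vasa-Cre* (Tra2b fl/-, Vasa-Cre), and the lines were kept on C57BL/6J. *Vasa-Cre* acts in germ cells, so somatic cells of the *Tra2b-cPEko* testis keep the poison exon on their floxed allele. The samples were labelled as mixed cell types, and the question here was whether germ cell and ubiquitous chaperones differed between genotypes at an age when the first spermatocytes reach mid-prophase.

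HSP70 proteins bind unfolded stretches of client proteins and release them in cycles driven by ATP. HSP110 proteins speed nucleotide release from HSP70, and HSP90 proteins finish the folding of kinases, receptors and other clients. In the endoplasmic reticulum (ER), calnexin holds newly made glycoproteins by their sugars. Spermatogenic cells make their own versions of several of these proteins. HSPA2 is made in spermatocytes and is needed to complete meiosis, and calmegin (the product of *Clgn*) is a calnexin relative that sperm surface proteins require in order to mature. HSPA1L is best known from spermatids, and HSPA4L is an HSP110 form abundant in testis.

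The members lie at separate places in the GRCm39 genome, given here with the GENCODE annotation. *Hspa2* lies on chromosome 12, 76450151 to 76453712 (2 exons in its canonical transcript), *Hspa1l* on chromosome 17, 35191664 to 35198261 (2 exons), *Hspa4l* on chromosome 3, 40698643 to 40750538 (19 exons), and *Clgn* on chromosome 8, 84116307 to 84155187 (15 exons). Of the ubiquitous forms, *Hspa4* lies on chromosome 11, 53150641 to 53191531, *Hspa5* on chromosome 2, 34661982 to 34668880, *Hspa8* on chromosome 9, 40711630 to 40731039, and *Canx* on chromosome 11, 50183939 to 50216529. *Hsp90aa1* lies on chromosome 12, 110656842 to 110669166, and *Hsp90ab1* on chromosome 17, 45878552 to 45891949. 

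RefSeq promoters (250 bases before the gene start and 50 after, build GRCm38.p6) were matched for 6 of the 10 members: *Hspa2*, *Hspa1l*, *Hspa4l*, *Hspa4*, *Hspa5* and *Canx*. Those of *Hspa2* (chr12:76404120-76404419, plus strand), *Hspa5* (chr2:34771840-34772139, plus strand) and *Canx* (chr11:50325624-50325923, minus strand) are shown to set the germ cell HSP70 beside the pair of ER chaperones that share a long motif. Capitals mark matches, on either strand, to the CCAAT box (CCAAT, or ATTGG on the other strand) or to the ER stress element (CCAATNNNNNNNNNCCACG), which begins with a CCAAT box.
*Hspa2*: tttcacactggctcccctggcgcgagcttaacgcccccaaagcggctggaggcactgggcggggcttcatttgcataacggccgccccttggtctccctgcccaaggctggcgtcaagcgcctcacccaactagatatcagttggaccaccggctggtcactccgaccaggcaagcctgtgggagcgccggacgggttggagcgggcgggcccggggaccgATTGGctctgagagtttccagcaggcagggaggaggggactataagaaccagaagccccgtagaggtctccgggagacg
*Hspa5*: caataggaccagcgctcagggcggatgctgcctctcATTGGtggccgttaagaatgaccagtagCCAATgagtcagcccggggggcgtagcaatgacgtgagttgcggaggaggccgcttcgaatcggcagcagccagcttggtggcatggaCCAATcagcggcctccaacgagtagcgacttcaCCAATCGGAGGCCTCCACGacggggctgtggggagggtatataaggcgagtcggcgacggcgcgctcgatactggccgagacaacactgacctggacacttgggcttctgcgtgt
*Canx*: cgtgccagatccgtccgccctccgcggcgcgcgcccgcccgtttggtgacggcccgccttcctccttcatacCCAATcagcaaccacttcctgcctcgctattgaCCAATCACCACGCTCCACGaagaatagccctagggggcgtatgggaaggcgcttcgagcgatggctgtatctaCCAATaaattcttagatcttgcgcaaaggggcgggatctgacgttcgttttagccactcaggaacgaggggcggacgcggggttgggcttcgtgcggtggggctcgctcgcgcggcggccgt

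The ER stress element began 65 bases before the start of *Hspa5* (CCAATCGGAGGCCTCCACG) and 145 bases before that of *Canx* (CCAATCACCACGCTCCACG), and 39 of 32851 RefSeq mouse promoters of this length (0.119%) held it. It was not found in the other 4 member promoters. The *Hspa2* promoter held 1 CCAAT box, as ATTGG, 29 bases before the start, and that of *Hspa1l* held 1, 57 bases before. CCAAT boxes occurred in 37.4% of all promoters. No member promoter matched a heat shock element of 3 units (GAANNTTCNNGAA or TTCNNGAANNTTC, in 0.603% of promoters) or of 2 units (GAANNTTC or TTCNNGAA, in 15.1%), the cyclic AMP response element (TGACGTCA, 1.79%) or the TATA box in the form TATAAA (13.6%). A 2-unit heat shock element (GAAGATTC) lay 104 bases before the start of *Hspa1a* and of *Hspa1b*, the heat-inducible HSP70 genes next to *Hspa1l*.

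Reads on genes ranged from 36757386 to 59101569 per library. *Tra2b*, the targeted gene, had 156 to 176 CPM (counts scaled to the total on genes of each library, after TMM factors) in wild type and 190 to 209 in *Tra2b-cPEko* testes (log2 fold change 0.27, SE 0.05, adjusted p = 0.0552 by edgeR and 1.95e-04 by DESeq2), and the genotypes did not overlap. *Tra2a*, its paralogue, fell by 0.89 on the log2 scale (SE 0.08, adjusted p = 2.31e-03 by edgeR). Among the marker lists, the summed level of differentiating spermatogonia (495 to 536 CPM in wild type, 421 to 490 in *Tra2b-cPEko*) and that of macrophages (121 to 141 and 145 to 173 CPM) did not overlap between genotypes. The other 11 overlapped: undifferentiated spermatogonia, leptotene and zygotene spermatocytes, pachytene spermatocytes, round spermatids, all germ cells, Sertoli cells, Leydig cells, peritubular and stromal cells, endothelial cells, red blood cells and adipocytes. Gene by gene, genotypes did not overlap for 1 of 6 differentiating spermatogonia markers (16.7%) and 0 of 8 macrophage markers, against 8.54% of all genes. At an unadjusted edgeR p under 0.05 there were 2 of 6 (33.3%) and 5 of 8 (62.5%), against 15.3% of all genes. Among the lists that overlapped, this share ran from 0% (endothelial and red blood cells) to 60% (all germ cells, 3 of 5). Those 3 markers, and 4 of 15 leptotene and zygotene markers (26.7%), were lower in *Tra2b-cPEko*. For pachytene spermatocytes it was 1 of 10 (10%). *Sohlh1*, of the differentiating spermatogonia list, was called by edgeR (log2 fold change -0.34, adjusted p = 0.0341). Of 11 round spermatid markers, 3, among them *Prm2* and *Tnp2*, had no read in any library.

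All 10 members passed the filter on low counts, and none was called between genotypes. At an adjusted p under 0.05, edgeR called 0 of 10 members, against 30 of 19104 genes tested (0.157%), and DESeq2 called 0 of 10, against 507 of 18149 (2.79%). At an unadjusted p under 0.05, 0 of 10 members passed, against 15.3% of all genes, and 0 of 10 had genotypes that did not overlap, against 8.54% of all genes. The lowest adjusted p of a member was 0.538 (*Hspa5*, edgeR). With no member called, the size of difference that the 95% intervals allow is given below for each gene.

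*Hspa2*, the spermatocyte HSP70, was the germ cell HSP70 with the higher level. Wild type testes A to D had 148, 166, 86.6 and 108 CPM, and *Tra2b-cPEko* testes A to D had 123, 101, 132 and 132 CPM. Wild type A and B were above all *Tra2b-cPEko* testes and wild type C was below them, so that the wild type range enclosed that of *Tra2b-cPEko*. The log2 fold change was -0.06 (SE 0.22, 95% interval -0.58 to 0.47, adjusted p = 0.930 by edgeR), a range of -33.1% to 38.1% in linear terms. Its sign turned when wild type A, wild type B or *Tra2b-cPEko* B was left out (-0.21 to 0.10 over all 8 omissions).

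*Clgn* encodes calmegin and varied most of all members in wild type, though not in *Tra2b-cPEko*. Wild type testes A to D had 65.7, 65.1, 25.1 and 32.3 CPM, whereas *Tra2b-cPEko* testes had 34.7, 33.4, 41.4 and 36.0 CPM. Wild type A and B were high, wild type C and D were below all *Tra2b-cPEko* values, and the 4 *Tra2b-cPEko* testes lay between these pairs. Means were 47.0 ± 21.4 CPM in wild type and 36.3 ± 3.51 CPM in *Tra2b-cPEko* (SD, n = 4). The log2 fold change was -0.37 (SE 0.34, 95% interval -1.20 to 0.46, adjusted p = 0.657 by edgeR), so that a change from -56.4% to 37.8% was not distinguished. It was -0.17 without wild type A and -0.58 without wild type C.

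*Hspa4l*, the testis-enriched HSP110, had 234, 212, 186 and 179 CPM in wild type and 198, 189, 214 and 203 CPM in *Tra2b-cPEko* testes A to D. The wild type range again enclosed that of *Tra2b-cPEko*. The log2 fold change was -0.01 (SE 0.08, 95% interval -0.18 to 0.16, adjusted p = 0.967 by edgeR), which limits a difference to -12.0% to 12.0%. *Hspa1l*, the HSP70 of spermatids, was at a low level, with 36 to 66 reads per library. Wild type testes had 1.11, 1.14, 1.03 and 0.83 CPM and *Tra2b-cPEko* testes had 1.32, 1.39, 0.96 and 0.98 CPM. *Tra2b-cPEko* A and B exceeded all wild type values and C and D did not (log2 fold change 0.19, SE 0.18, 95% interval -0.21 to 0.58, adjusted p = 0.654 by edgeR). It was 0.09 without wild type D and 0.27 without *Tra2b-cPEko* C.

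**Figure D1:**
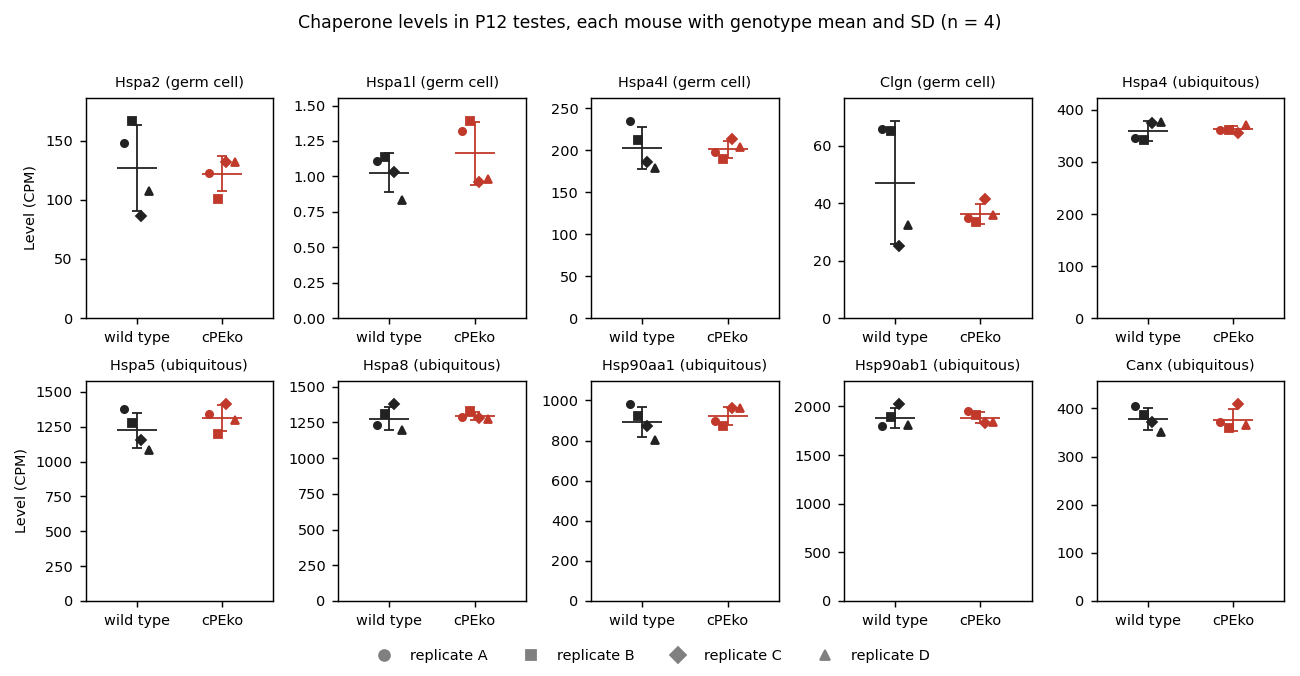
Level of each of the 10 chaperones in CPM (y axis from 0) in wild type (black) and Tra2b-cPEko (red) P12 testes. Each point is 1 mouse, with the shape giving the replicate letter, and bars give mean and SD (n = 4). Wild type A and B stand high for Hspa2 and Clgn (65.7 and 65.1 CPM for Clgn, against 25.1 and 32.3 in C and D), and the genotypes overlap for all 10 genes.

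Among the ubiquitous forms, *Hspa8* encodes HSC70, the constitutive cytosolic HSP70. It had 1229, 1306, 1378 and 1196 CPM in wild type and 1289, 1332, 1283 and 1271 CPM in *Tra2b-cPEko* testes A to D (log2 fold change 0.02, SE 0.05, 95% interval -0.09 to 0.13, adjusted p = 0.896 by edgeR). All 4 *Tra2b-cPEko* values lay inside the wild type range. *Hspa4*, the ubiquitous HSP110, had 346, 341, 375 and 376 CPM in wild type and 361, 362, 356 and 372 CPM in *Tra2b-cPEko* testes, again inside the wild type range (0.01, 95% interval -0.09 to 0.11, adjusted p = 0.929). Here wild type A and B were the lowest libraries, the reverse of their place for *Hspa4l*.

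*Hspa5* encodes BiP, the ER member of the HSP70 family, and showed the largest shift of the ubiquitous forms. It had 1376, 1274, 1158 and 1086 CPM in wild type and 1343, 1194, 1411 and 1301 CPM in *Tra2b-cPEko* testes. The genotypes overlapped, with wild type A above 3 of the 4 *Tra2b-cPEko* testes. The log2 fold change was 0.10 (SE 0.07, 95% interval -0.06 to 0.26, adjusted p = 0.538 by edgeR), or -4.03% to 19.9%, and it was positive in every omission of a mouse (0.04 to 0.16). *Canx* encodes calnexin and had 405, 385, 371 and 352 CPM in wild type and 372, 359, 409 and 365 CPM in *Tra2b-cPEko* testes (log2 fold change -0.01, 95% interval -0.13 to 0.11, adjusted p = 0.963). *Tra2b-cPEko* C had the highest value of both ER chaperones. This library also had the highest summed adipocyte markers (25.05 CPM, against 8.42 to 12.2 CPM in the other 7), and without it the *Hspa5* log2 fold change was 0.06.

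Of the cytosolic HSP90 forms, *Hsp90ab1*, the constitutive HSP90, was the most abundant member, with 1796, 1890, 2023 and 1810 CPM in wild type and 1949, 1915, 1831 and 1837 CPM in *Tra2b-cPEko* testes (log2 fold change 0.00, SE 0.05, 95% interval -0.10 to 0.11, adjusted p = 0.987 by edgeR). *Hsp90aa1*, the inducible HSP90 that is also made in spermatocytes, had 981, 920, 871 and 804 CPM in wild type and 896, 870, 960 and 963 CPM in *Tra2b-cPEko* testes (0.04, SE 0.06, 95% interval -0.09 to 0.18, adjusted p = 0.765). In both, the genotypes overlapped. Of the ubiquitous forms, *Hspa5* alone kept its sign in every omission of a mouse. The 95% intervals of the 6 ubiquitous forms reached at most 19.9% in either direction, whereas those of *Hspa2*, *Hspa1l* and *Clgn* reached 38.1%, 49.7% and -56.4%.

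**Figure D2:**
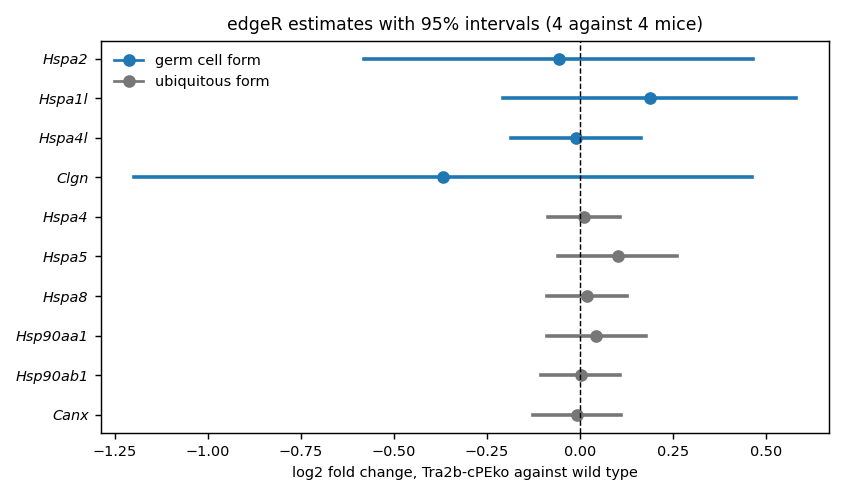
edgeR log2 fold change (x axis, Tra2b-cPEko against wild type, 4 mice each) of the 10 chaperones, with bars for the 95% interval, germ cell forms in blue and ubiquitous forms in grey. All intervals cross 0, from the widest for Clgn (-1.20 to 0.46) to narrow ones such as Hspa4 (-0.09 to 0.11).

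To set germ cell forms against ubiquitous relatives free of the scaling between libraries, ratios of reads were taken within each library. *Clgn* reads came to 16.2%, 16.9%, 6.75% and 9.18% of *Canx* reads in wild type A to D, and to 9.33%, 9.30%, 10.1% and 9.85% in *Tra2b-cPEko* A to D. The *Tra2b-cPEko* testes thus spanned less than 1 percentage point, inside a wild type range in which A and B were above and C and D below them. The difference of the log2 means was -0.24 (exact permutation p = 0.429, two-sided, 0.857 after Benjamini-Hochberg adjustment over the 4 ratios). It was -0.07 without wild type A, -0.05 without wild type B and -0.50 without wild type C. The SD of the log2 ratio was 0.65 in wild type and 0.06 in *Tra2b-cPEko* (n = 4 each); the difference in spread was not tested. The smallest p that 4 against 4 mice allow is 0.0286.

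*Hspa2* reads were 12.0%, 12.7%, 6.28% and 9.01% of *Hspa8* reads in wild type and 9.55%, 7.58%, 10.3% and 10.4% in *Tra2b-cPEko* testes (log2 difference -0.04, exact permutation p = 0.886, adjusted 0.886). *Hspa4l* reads were 67.7%, 62.0%, 49.6% and 47.4% of *Hspa4* reads in wild type and 55.0%, 52.3%, 60.03% and 54.7% in *Tra2b-cPEko* testes (-0.02, exact permutation p = 0.886, adjusted 0.886). The *Hspa2* difference ran from -0.25 without wild type C to 0.09 without wild type B, and the *Hspa4l* difference from -0.10 without wild type D to 0.07 without wild type A, so both turned sign. In both pairs wild type A and B had the highest ratios and the *Tra2b-cPEko* testes fell within the wild type range. *Hspa1l* reads made up 0.0701% to 0.0911% of *Hspa8* reads in wild type and 0.0758% to 0.105% in *Tra2b-cPEko* testes (0.15, exact permutation p = 0.343, adjusted 0.857, 0.07 to 0.23 when each mouse was left out), and the genotypes overlapped.

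**Figure D3:**
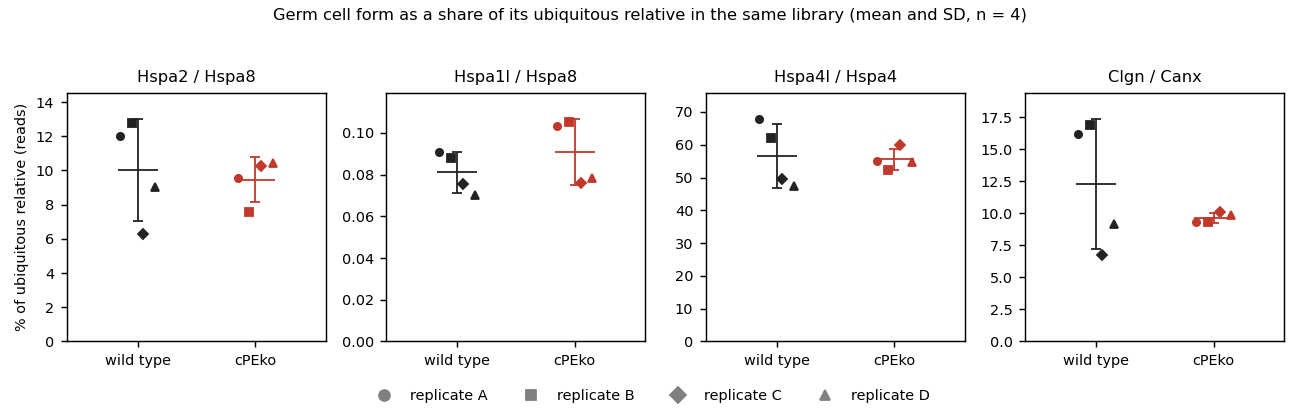
Reads of each germ cell form as a percentage of those of its ubiquitous relative in the same library (y axis from 0), for wild type (black) and Tra2b-cPEko (red) testes, with mean and SD (n = 4). For Clgn to Canx, the 4 Tra2b-cPEko testes lie between 9.30% and 10.1%, inside a wild type range of 6.75% to 16.9%.

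Levels between genes were compared as CPM per kilobase of the canonical transcript. The order by mean over 8 mice was *Hsp90ab1* (696), *Hspa8* (537), *Hsp90aa1* (257), *Hspa5* (256), *Canx* (99.1), *Hspa4* (74.2), *Hspa2* (44.7), *Hspa4l* (21.0), *Clgn* (10.2) and *Hspa1l* (0.440). Every germ cell form thus ranked below every ubiquitous form on this scale, where the testis as a whole is averaged. Neighbours in this order did not overlap in their ranges over mice, with the exception of *Hsp90aa1* (228 to 278) and *Hspa5* (219 to 285). The order depends on the canonical lengths, such as 9603 bases for *Hspa4l*, 2788 for *Hspa2* and 2394 for *Hspa8*. Without the division by length, *Hspa4l* stood above *Hspa2* (wild type means 203 and 127 CPM). Which transcripts are made in these testes was not examined.

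In wild type, the values of every germ cell form spread more than those of every ubiquitous form. The coefficient of variation (CV) of CPM was 45.5% for *Clgn*, 28.7% for *Hspa2*, 13.5% for *Hspa1l* and 12.6% for *Hspa4l*, against 5.15% (*Hspa4*) to 10.5% (*Hspa5*) for the ubiquitous forms. For *Hspa1l*, counting error alone gives 14.3% at 48.8 reads per library, as large as its CV, whereas it gives at most 2.54% for each other member. The highest wild type value was 2.62 times the lowest for *Clgn* and 1.92 times for *Hspa2*. In *Tra2b-cPEko* testes the CV was 9.65% for *Clgn*, 12.0% for *Hspa2*, 5.07% for *Hspa4l* and 19.2% for *Hspa1l*. For 15477 genes of at least 1 CPM, the median CV was 7.38% in wild type and 5.62% in *Tra2b-cPEko*, and the 90th percentile was 17.6% and 16.4%. *Clgn* and *Hspa2* were thus above the 90th percentile in wild type and below it in *Tra2b-cPEko*. No test of spread was run.

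The spread of *Clgn* and *Hspa2* moved with markers of pachytene spermatocytes, among other lists. The summed level of the pachytene list (12 genes) was 246, 246, 125 and 150 CPM in wild type A to D and 161, 128, 176 and 170 CPM in *Tra2b-cPEko* A to D, so that wild type A and B were high here too. They were also the highest libraries for the summed leptotene and zygotene markers (2700 and 2396 CPM, against 2001 to 2143 in the other 6), all germ cell markers (1503 and 1450, against 1247 to 1323) and red blood cell markers (79.6 and 116, against 21.6 to 67.5), and the lowest for undifferentiated spermatogonia (295 and 290, against 302 to 345). The part of each of these in the spread was not tested. With log2 levels centred within genotype, the mean of the 10 tested markers correlated across the 8 mice with *Clgn* (Pearson r = 0.975, Spearman rho = 0.976), *Hspa2* (r = 0.964, rho = 0.952) and *Hspa4l* (r = 0.912, rho = 0.905). For *Hspa4* the sign was opposite (r = -0.890, rho = -0.905), and for *Hspa1l* r was 0.129. *Hspa5* (r = 0.860), *Hsp90aa1* (0.811) and *Canx* (0.751) followed the germ cell forms, whereas *Hspa8* (-0.281) and *Hsp90ab1* (-0.526) did not. Wild type B and C lay farthest from the median of the marker mean once it was centred within genotype. Leaving them out, r was 0.961 for *Clgn*, 0.940 for *Hspa2*, 0.992 for *Hspa4l* and -0.799 for *Hspa4*. It was as high for the ubiquitous *Hsp90aa1* (0.974) and *Hspa5* (0.970), and 0.916 for *Canx*. For *Hspa8*, *Hsp90ab1* and *Hspa1l* it was 0.03, -0.482 and 0.04. Wild type A, with high marker levels, and D, with low ones, stayed in. This omission therefore does not remove the split among wild type mice and cannot tell how far r rests on it. These values describe 8 libraries, with no p given. Correlations with the other marker lists were not taken, and the share of all genes that reach such values was not counted. A particular tie to pachytene markers was thus not tested. Within whole-testis RNA, fewer cells of a type and less RNA per cell cannot be told apart, and the part of the exact age of each mouse in this spread was not tested.

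**Figure D4:**
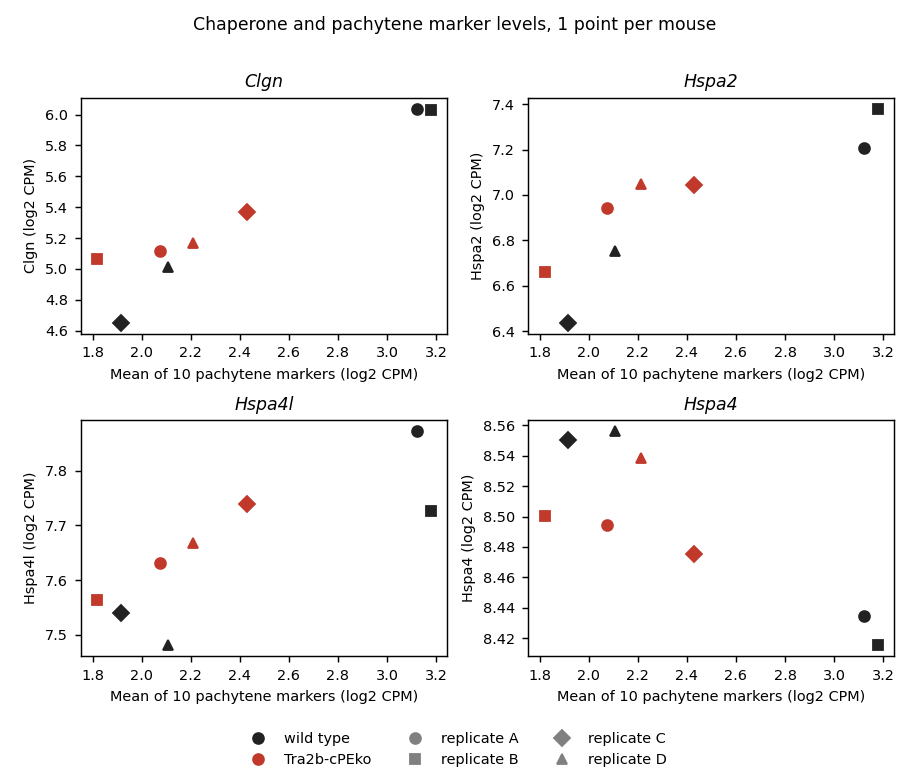
Log2 CPM of Clgn, Hspa2, Hspa4l and Hspa4 (y axes) against the mean log2 CPM of 10 pachytene markers (x axis), 1 point per mouse, wild type in black and Tra2b-cPEko in red. Wild type A and B lie at the right of each panel, high for Clgn, Hspa2 and Hspa4l and low for Hspa4.

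*Hspa2* and *Clgn* also resembled each other (r = 0.937 across 8 mice, 0.828 without wild type B and C), yet *Clgn* differed more among the mice. *Clgn* reads were 44.4% and 39.1% of *Hspa2* reads in wild type A and B, and 27.2% to 33.1% in the other 6 libraries. Among 15476 other genes of at least 1 CPM, those most like *Hspa2* were *Kctd7* (r = 0.994), *Shank1* (0.992) and *Rfx2* (0.992), the last a transcription factor of spermatocytes and spermatids. Those most like *Clgn* were *Piwil1* (r = 0.995), which encodes the PIWI protein of pachytene spermatocytes and is in the pachytene list, *Ccdc60* (0.994) and *Smim24* (0.993). *Piwil1* had 43.6, 46.8, 10.2 and 14.4 CPM in wild type and 11.1, 9.04, 14.3 and 10.9 CPM in *Tra2b-cPEko* testes. None of these 6 genes was called between genotypes (lowest adjusted p = 0.216 by edgeR, *Shank1*).

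Beyond the members, 115 further genes of the folding machinery, its regulators, partners and clients were read in 9 lists, of which 107 were tested. edgeR called 0 of 107, 16 had an unadjusted p under 0.05 (4 higher and 12 lower in *Tra2b-cPEko*), and 12 did not overlap between genotypes. These are 15% and 11.2% of the genes tested in the lists, beside 15.3% and 8.54% of all genes, so the first is the share of the background. DESeq2 called 1, *Trib3*. The median log2 fold change was -0.02, against -0.00 for all genes tested.

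The chaperonins, which include the subunits of the TRiC ring that folds actin and tubulin, lay mostly on the lower side. Of 11 tested, 10 had a negative log2 fold change (90.9%, against 50.3% of all genes), with a median of -0.09. At an unadjusted p under 0.05 there were 4 (36.4%, against 15.3% of all genes), *Tcp1*, *Cct2*, *Cct6a* and *Cct8*, chosen here after their values were seen, and none was called (lowest adjusted p = 0.265 by edgeR). *Cct8* had 319 to 355 CPM in wild type and 303 to 314 CPM in *Tra2b-cPEko* testes (log2 fold change -0.11, SE 0.04). *Cct6b*, the testis form of a TRiC subunit, had 3.51, 3.07, 1.83 and 1.80 CPM in wild type and 1.77 to 1.99 CPM in *Tra2b-cPEko* testes (-0.43, SE 0.21, adjusted p = 0.357), with wild type A and B once more the highest. *Hspd1*, the mitochondrial HSP60, was at 0.04.

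The other HSP70 and HSP110 genes gave 0 of 9 at an unadjusted p under 0.05. The inducible *Hspa1a* (12.8 to 18.5 CPM over all mice) and *Hspa1b* (14.0 to 22.6 CPM) had log2 fold changes of -0.03 and 0.14, and the mitochondrial *Hspa9* one of -0.00. *Hsph1*, an inducible HSP110, was at -0.08. Of the 16 HSP90 paralogues and co-chaperones, 5 had an unadjusted p under 0.05, 1 higher and 4 lower (31.2%, against 15.3% of all genes), and 2 did not overlap (12.5%, against 8.54%). *Fkbp6*, an immunophilin that binds HSP90 in male germ cells, had 225.1 to 245.1 CPM in wild type and 205.2 to 224.6 CPM in *Tra2b-cPEko* testes, with no overlap (-0.13, SE 0.05, adjusted p = 0.218 by edgeR). *Cdc37l1*, a relative of the kinase co-chaperone CDC37, had 145 to 160 and 162 to 170 CPM (0.13, SE 0.04, adjusted p = 0.195), also without overlap. *Hsp90b1*, the ER form of HSP90, was at 0.01.

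Of 23 tested J-domain proteins and HSP70 co-factors, 2 had an unadjusted p under 0.05, a share of 8.70% that is below the 15.3% of all genes. *Dnajb14* had 23.5 to 28.2 CPM in wild type and 28.9 to 31.4 CPM in *Tra2b-cPEko* testes (log2 fold change 0.23, SE 0.07, adjusted p = 0.167 by edgeR). *Dnajb13*, a J-domain protein of the sperm flagellum, had 0.88, 1.21, 0.44 and 0.63 CPM in wild type and 0.38 to 0.49 CPM in *Tra2b-cPEko* testes (-0.80, SE 0.29, adjusted p = 0.235) from 17 to 51 reads per library. *Dnajb3* was at -0.19, and *Bag6*, which is required for HSPA2 stability in spermatocytes, at 0.01. *Dnajb8* had no read in any library, so a very low level is not excluded.

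In the ER folding list, 2 of 20 genes had an unadjusted p under 0.05 (10%, fewer than the 15.3% of all genes). Of these, 1 was higher and 1 lower in *Tra2b-cPEko*. Genotypes did not overlap for 2 of 20 (10%, against 8.54% of all genes). *Sil1*, which releases nucleotide from BiP, had 44.1 to 52.0 CPM in wild type and 40.3 to 42.6 CPM in *Tra2b-cPEko* testes (log2 fold change -0.18, SE 0.06, adjusted p = 0.184 by edgeR), and the genotypes did not overlap. *Calr* (calreticulin) was at 0.08, *Pdia3* at 0.00 and *Dnajc10* at 0.13. *Dnajc10* was at 0.03 without *Tra2b-cPEko* C, and *Calr* at 0.02 without wild type D. The testis forms *Calr3* (4.39 to 5.48 CPM) and *Pdilt* (0.10 to 0.30 CPM) were at -0.11 and -0.05.

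Among 9 regulators of the unfolded protein response, *Trib3* had 4.50, 4.45, 4.48 and 4.98 CPM in wild type and 3.53, 3.92, 3.36 and 3.30 CPM in *Tra2b-cPEko* testes. *Trib3* encodes a pseudokinase induced under ER stress. It did not overlap between genotypes (log2 fold change -0.39, SE 0.10), with an adjusted p of 0.135 by edgeR and 0.0490 by DESeq2. *Xbp1* did not overlap either, in the other direction (log2 fold change 0.08, adjusted p = 0.407 by edgeR). It had 59.9 to 65.6 CPM in wild type and 66.3 to 66.7 CPM in *Tra2b-cPEko* testes. These are 2 of the 9 regulators (22.2%, against 8.54% of all genes). At an unadjusted edgeR p under 0.05 there was 1 of 9, *Trib3* (11.1%, below the 15.3% of all genes). The heat shock factor list holds *Hsf1* to *Hsf5* and also *Hsf2bp* and *Hsbp1*. Of these 7 genes, 0 had an unadjusted p under 0.05. *Hsf1* and *Hsf2* were at -0.02 and -0.05, *Hsf4* was at 0.18, and *Hsf5*, a factor of spermatocytes, had 21.0, 23.2, 9.49 and 12.2 CPM in wild type and 10.3 to 15.5 CPM in *Tra2b-cPEko* testes (-0.33, SE 0.31, adjusted p = 0.655 by edgeR).

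Of 7 tested genes in the small heat shock protein list, 1 had an unadjusted p under 0.05 (14.3%, near the 15.3% of all genes). This was *Hspb11* (log2 fold change -0.19, adjusted p = 0.272 by edgeR), and *Hspb2* was at 0.18. The list of HSPA2 partners and calmegin clients had 1 of 5 (20%), *Adam1a*. Among partners of HSPA2, *Shcbp1l* was at 0.02, *Cdk1*, the kinase whose complex with cyclin B1 depends on HSPA2, at 0.05, and *Ccnb1* at -0.07. Clients of calmegin gave *Adam1a* at 0.27 (adjusted p = 0.311) and *Adam2* at -1.13 (SE 0.61, adjusted p = 0.436). *Adam2*, a sperm surface protein, had 8.80, 9.08, 1.81 and 3.05 CPM in wild type and 1.94, 1.58, 4.30 and 2.45 CPM in *Tra2b-cPEko* testes, and it is also in the pachytene list.

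**Figure D5:**
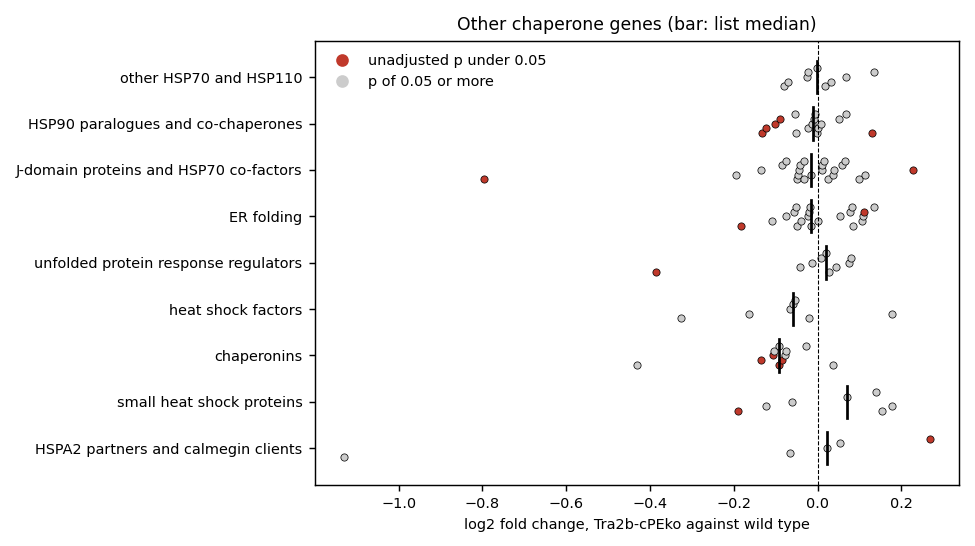
Log2 fold change (x axis, Tra2b-cPEko against wild type) of the 107 tested genes of 9 further chaperone lists (rows), 1 point per gene, red for an unadjusted edgeR p under 0.05 and grey otherwise, with a bar at each list's median. No gene was called by edgeR after adjustment, and 10 of 11 chaperonins lie below 0.

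Some members share sequence with other genes. *Hspa8* has 5 processed pseudogenes and 1 non-coding gene, and *Hsp90aa1* 4 copies, with transcripts that match at 95% identity or more over at least 50% of the shorter one, and *Hspa1a* and *Hspa1b* are 99.2% identical. Reads that could be placed equally well in several places made up 14.6% to 15.6% of all reads and were not counted, so the levels of these genes are uncertain. *Hspa2*, *Hspa1l* and *Clgn* overlap a non-coding gene on the opposite strand, and so do *Hspa8*, *Hsp90aa1*, *Hsp90ab1* and *Canx*. On the same strand, *Hspa8* overlaps the small RNA genes *Snord14c*, *Snord14d* and *Snord14e*, and *Hsp90aa1* overlaps the non-coding *Gm60091*. *Hspa5* and *Hsp90ab1* overlap the coding genes *Rabepk* and *Slc35b2* on the opposite strand. Reads on *4930426I24Rik*, the partner of *Hspa2*, numbered 132 to 231 per library, and those on *Gm32377*, the partner of *Clgn*, 38 to 103, beside 3709 to 7039 and 1191 to 2903 reads on the genes themselves.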

How the data were processed

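Per the labels, RNA from whole P12 testes was made into stranded mRNA libraries. The authors deposited raw counts of reads per gene, 1 table per mouse. The submitters' processing notes name HISAT2 2.2.1, SAMtools 1.7.1, HTSeq 2.0.2 and deepTools 3.5.1, with GRCm39. The paper's methods name Salmon, but the 5 closing lines of each table have the form written by htseq-count. These lines (31.0% to 33.6% of all reads) were left out. How strand was handled in counting is not given in the sources used here.

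The tests ran under R 4.3.3. edgeR 4.0.16 was the main tool (low counts removed by filterByExpr at 10 per library and 15 in total, TMM factors, robust quasi-likelihood F-test, genotype only, Benjamini-Hochberg over 19104 genes, threshold 0.05). SE and 95% intervals come from this fit. DESeq2 1.42.0, limma 3.58.1 (voom), other factors and filters, a replicate block and omission of each mouse were alternatives. The study also used DESeq2, with no version given, on counts that its methods credit to Salmon. Ratios used a pseudocount of 0.5 and two-sided exact permutation tests over 70 arrangements. CPM are counts scaled to each library's total on genes after TMM factors, and mouse correlations used log2 CPM with a prior count of 2. The scripts were tested on simulated data. Copies were sought with BLAST+ 2.17.0+, and promoters come from RefSeq (GRCm38.p6), whose coordinates are not mixed with those of GRCm39. Within a genotype, any pair of libraries gave a chi-square of at least 6.24 per degree of freedom, so none was a copy. Depth was 36757386 to 59101569 reads per library, and counting error was below the spread between mice for the members other than *Hspa1l* (36 to 66 reads per library).

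Members and gene lists were chosen with earlier results of these data known. Named genes were all members, chaperone genes picked for their role, the extremes of each list by log2 fold change (mean of at least 1 CPM), the 3 genes most like *Hspa2* and *Clgn*, and *Tra2b* and *Tra2a*.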

Additional observations from a re-analysis of the deposited data

Results flagged for a closer look

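Of 108 groups of 4 mice checked for the genes named here, 7 held a mouse far from the other 3 (a gap above Dixon's 95% limit for 4 values), where chance gives about 5.4. No member was among them. *Dnajc10* stood at 169 CPM in *Tra2b-cPEko* C, the library with the highest adipocyte markers, and *Smim24* at 5.67 CPM in the same library. *Hspb2* stood at 1.704 CPM in *Tra2b-cPEko* A. In wild type, *Trib3* stood at 4.98 CPM in D, *Hsf1* at 73.8 CPM in B, and *Hsf4* and *Ccnb1* at 1.11 and 83.3 CPM in C. *Ccnb1* has 4 near-identical copies, and *Hsf1* shares sequence with an overlapping gene. The part of sequence copies or of single libraries in these values was not tested.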

How the results depend on the processing

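No member was called under any of the 16 alternatives (*Hspa1l* was not tested at a mean count of at least 50). The count of all genes called was 30, and it was 58 with upper-quartile factors, 123 with no low-count filter, 14 with a mean count of at least 50, 507 with DESeq2, 11 with limma-voom, 12 without robust estimation, and 3 to 84 when each mouse was left out (3 without *Tra2b-cPEko* D, 9 without wild type A, wild type B or *Tra2b-cPEko* C, 10 without *Tra2b-cPEko* A, 76 without *Tra2b-cPEko* B and 84 without wild type C). With the replicate block it was 67. Deviations from the genotype means correlated at 0.03, -0.13, -0.04 and 0.12 for mice with the same letter. For different letters the range was -0.0983 to 0.154. Centring within genotype holds such values around 0 on average, so they cannot show that the letters mark no pairing. The block called no member and no chaperone list gene. Of the chaperone lists, 1 gene was called by DESeq2 and 0 otherwise. The cause of these shifts was not tested.

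Log2 fold changes close to 0 changed sign. With upper-quartile factors *Hspa4l* was 0.0081, *Canx* was 0.011 and *Hspa9* was 0.017. Without the low-count filter *Hsp90ab1* was -0.0057, *Hsp90b1* was -0.0015 and *Pdia3* was -0.0075. With a mean count of at least 50 *Hspa9* was 0.0017. With RLE factors *Pdia3* was -0.00017. With DESeq2 *Pdia3* was -0.0017. Leaving out each mouse gave -0.21 to 0.10 for *Hspa2*, -0.070 to 0.065 for *Hspa4l*, -0.012 to 0.031 for *Hspa4*, -0.015 to 0.055 for *Hspa8*, -0.0065 to 0.091 for *Hsp90aa1*, -0.020 to 0.038 for *Hsp90ab1* and -0.052 to 0.025 for *Canx*. It gave -0.088 to 0.074 for *Hspa1a*, -0.023 to 0.017 for *Hspa9*, -0.044 to 0.033 for *Hsp90b1*, -0.21 to 0.22 for *Pdilt*, -0.025 to 0.015 for *Pdia3*, -0.021 to 0.035 for *Bag6*, -0.046 to 0.036 for *Hsf1*, -0.039 to 0.089 for *Shcbp1l* and -0.0054 to 0.11 for *Cdk1*. *Clgn* (-0.58 to -0.17) and *Hspa1l* (0.09 to 0.27) kept their sign.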
